A study of Mus musculus and Rattus norvegicus with 30 samples.

Results

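Pressure overload was examined in the left ventricle of vehicle-treated mice by setting transverse aortic constriction (TAC), in which a ligature narrows the aortic arch so that the ventricle ejects against a raised pressure, against sham surgery, which leaves the aorta open. The 8 libraries, 5 labelled TAC with vehicle (TAC_vehicle) and 3 labelled sham with vehicle (sham_vehicle), were taken by their surgery and treatment labels from the 30 libraries of the series. The other mouse groups, TAC_332 (5 libraries) and sham_332 (5 libraries), received 332, an agonist of the estrogen-related receptors (ERRs), and were used here to estimate the effect of the sequencing run and to compare the response to TAC with and without the agonist. All mice were labelled wild type, and RNA was taken from the left ventricle of mice that had been treated for 6 weeks from surgery, with 332 given by intraperitoneal injection. Strain, sex, age and the composition of the vehicle are not given in the sources used here, and the labels do not state that each library came from a separate mouse, so the p-values measure the spread between these libraries.

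A ventricle that works against high pressure thickens its wall, and its myocytes return in part to gene products of the fetal heart: the natriuretic peptides, beta myosin and skeletal alpha actin. Fibroblasts lay down collagen and matricellular proteins, which stiffen the wall, and the adult dependence on fatty acid oxidation weakens. The ERRs are nuclear receptors that bind, with PGC-1 coactivators, the promoters of genes for fatty acid oxidation, the tricarboxylic acid cycle and the respiratory chain, which is why those genes are described here beside the remodelling genes.

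The 8 libraries held 12473406 to 16177704 estimated counts each, and 14047 genes passed the filter on low counts. The labels give no batch, but the deposited files record a lane, and TAC_vehicle replicates 4 and 5 had lane 1 where the other TAC_vehicle and all 3 sham_vehicle libraries had lane 4. A second sequencing run was inferred from this lane number. Every main model of genes and transcripts carried a run term, estimated mainly from the 332 groups, that rests on that inference. The exact tests of single values carried none. Replicates 1 to 3 of TAC_332 had lane 4, but replicates 1 to 3 of sham_332 had lane 3, and both lanes were counted as the first run. Lane 3 cannot be told apart from the first-run sham_332 libraries, so its part in the run term and in the 332 contrast was not tested. The second-run libraries stood apart: mitochondrially encoded transcripts made up 25.6% and 23.7% of estimated counts in TAC_vehicle replicates 4 and 5, against 32.8% to 34.8% in replicates 1 to 3, and the median of the 6 tested adipocyte markers was raised in them by 2.40 and 2.61 on the log2(CPM + 0.5) scale over the sham mean, against -0.07, -0.07 and 0.04 in replicates 1 to 3. Gene results were therefore also computed from the first-run libraries of all 4 mouse groups, 3 of them TAC_vehicle and 3 sham_vehicle, and single values from those 3 against 3. The tissue label held: the ventricular light chain Myl2 reached 10254 ± 3370 TPM, a level per transcript length, in TAC_vehicle (SD, n = 5) and 11189 ± 191 TPM in sham_vehicle (SD, n = 3), while the atrial light chain Myl7 was at 0.51 ± 0.472 TPM and 0.221 ± 0.268 TPM. In this bulk tissue, fewer cells of a type and less RNA per cell cannot be told apart.

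TAC changed the level of 3703 of the 14047 genes tested, 26.4% (edgeR quasi-likelihood test, adjusted p under 0.05). Of these, 1900 rose (13.5% of genes tested) and 1803 fell (12.8%), and 473 rose and 290 fell by at least 2-fold. With the first run alone in all 4 mouse groups, 2911 of the 3703 were called again in the same direction and 0 in the opposite direction, and leaving out sham_vehicle replicate 3 lowered the count to 2437. The median log2 fold change of all genes tested was -0.01, so the lists described below are read against a background near 0. Counts of list members are read against the 13.5% of all genes that rose and the 12.8% that fell. Groups that do not overlap were common: the TAC_vehicle range lay above the sham_vehicle range for 14.3% of all genes and below it for 13.6%. CPM below means normalised counts scaled to a common library size after scaling by the trimmed mean of M-values, a quantity that compares libraries but not genes of different length, and folds and log2 changes are TAC_vehicle over sham_vehicle with the run term.

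**Figure D1:**
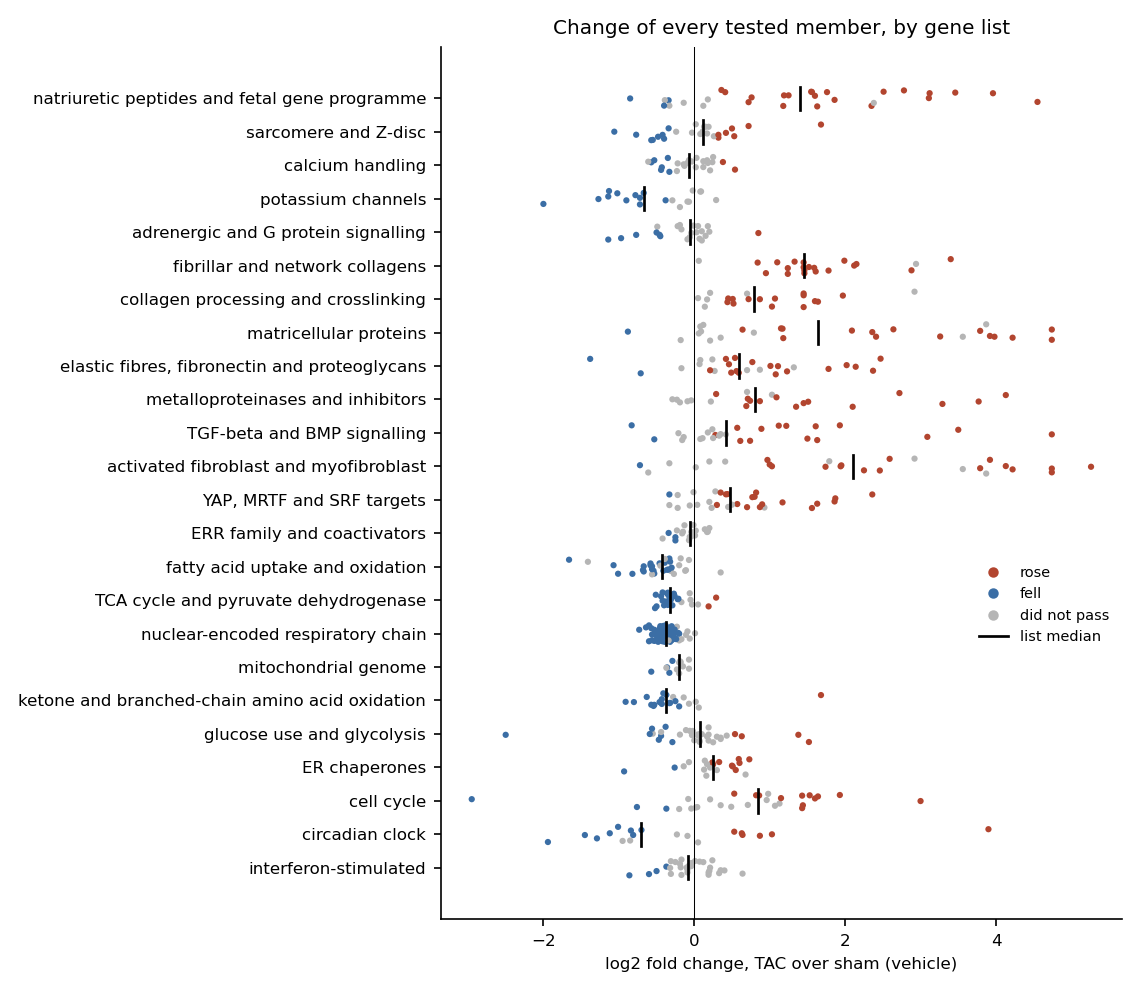
Log2 fold change (x axis, TAC over sham under vehicle) of every tested member of 24 gene lists (rows), each point 1 gene, coloured by whether it rose, fell or did not pass an adjusted p of 0.05, with the list median as a black bar. The medians of the collagens (1.46) and the activated fibroblast list (2.10) lie to the right, and those of the potassium channels (-0.67), fatty acid oxidation (-0.43) and the respiratory chain (-0.38) to the left.

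The genes of cardiac stress rose together. Of 30 tested genes of the natriuretic and fetal programme, 21 rose and 3 fell, with a median log2 change of 1.40, and 21 rose and 3 fell in the first run as well. The promoters of the 6 genes this section turns on are shown here, because they rose or fell in the same hearts and belong to the most studied stress promoters of the myocyte. Each is the RefSeq window of 250 bases before to 50 bases after the annotated start, on the gene's strand, in GRCm38.p6: Nppa at chr4:148000472-148000771 and Nppb at chr4:147985650-147985949 on the plus strand, and Acta1 at chr8:123894726-123895025, Ankrd1 at chr19:36119795-36120094, Myh7 at chr14:54994577-54994876 and Myh6 at chr14:54966558-54966857 on the minus strand. Capitals mark matches to the CArG box (the serum response factor element), CATTCC (the TEAD element), AGATAA (an element of cardiac zinc-finger factors) on either strand, so that CATTCC also appears as GGAATG and AGATAA as TTATCT, and to TATAAA on the given strand.
Nppa: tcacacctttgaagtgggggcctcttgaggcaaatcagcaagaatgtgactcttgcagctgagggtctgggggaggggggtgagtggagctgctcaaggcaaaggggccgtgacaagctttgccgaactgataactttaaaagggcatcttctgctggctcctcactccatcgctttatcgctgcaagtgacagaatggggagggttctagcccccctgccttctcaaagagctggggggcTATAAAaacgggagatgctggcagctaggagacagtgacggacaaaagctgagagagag
Nppb: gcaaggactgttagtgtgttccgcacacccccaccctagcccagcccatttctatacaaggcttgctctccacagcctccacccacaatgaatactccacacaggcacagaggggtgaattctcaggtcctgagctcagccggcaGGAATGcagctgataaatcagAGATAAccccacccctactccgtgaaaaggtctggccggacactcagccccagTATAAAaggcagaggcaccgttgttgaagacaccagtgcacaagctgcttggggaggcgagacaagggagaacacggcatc
Acta1: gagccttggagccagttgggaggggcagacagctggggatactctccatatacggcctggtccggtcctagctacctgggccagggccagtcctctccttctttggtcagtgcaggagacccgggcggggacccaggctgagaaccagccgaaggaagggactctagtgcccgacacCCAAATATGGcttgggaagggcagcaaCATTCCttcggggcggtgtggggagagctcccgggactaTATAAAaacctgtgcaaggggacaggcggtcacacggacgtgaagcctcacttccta
Ankrd1: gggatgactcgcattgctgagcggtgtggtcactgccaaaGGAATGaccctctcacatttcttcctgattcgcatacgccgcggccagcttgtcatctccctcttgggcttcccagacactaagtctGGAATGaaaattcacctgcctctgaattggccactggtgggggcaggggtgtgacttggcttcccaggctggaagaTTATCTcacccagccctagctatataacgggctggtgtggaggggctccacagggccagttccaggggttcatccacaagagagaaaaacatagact
Myh7: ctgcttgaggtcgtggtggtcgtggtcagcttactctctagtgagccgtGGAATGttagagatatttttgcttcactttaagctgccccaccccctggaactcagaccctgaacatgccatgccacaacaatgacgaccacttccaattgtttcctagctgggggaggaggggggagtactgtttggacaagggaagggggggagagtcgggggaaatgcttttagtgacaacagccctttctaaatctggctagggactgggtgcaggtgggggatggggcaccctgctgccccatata
Myh6: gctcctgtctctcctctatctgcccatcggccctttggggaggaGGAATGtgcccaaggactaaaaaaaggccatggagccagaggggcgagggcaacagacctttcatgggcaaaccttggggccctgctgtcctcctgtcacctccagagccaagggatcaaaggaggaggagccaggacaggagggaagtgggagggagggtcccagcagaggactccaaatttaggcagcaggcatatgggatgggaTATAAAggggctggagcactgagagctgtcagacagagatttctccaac

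A match is a description of the letters and not a binding site. Among 27025 RefSeq promoter windows of the same length, 1.57% held a CArG box, 14.6% CATTCC, 11.4% AGATAA and 8.88% TATAAA. The CArG box of Acta1 lay at -73 to -64 from the start and its CATTCC at -46 to -41. Ankrd1 held CATTCC at -210 to -205 and at -123 to -118, Nppb at -105 to -100, Myh7 at -201 to -196 and Myh6 at -206 to -201. TGANTCA (the AP-1 element, in 7.93% of windows), TNAAGGTCA (an ERR site, in 1.26%), CACGTG (the E-box, in 7.24%) and TTANGTAA (a D-box form, in 2.34%) were also searched on both strands and had no match in these 6 windows.

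Nppa, which encodes atrial natriuretic peptide, stood at 498, 1770, 1291, 805 and 2055 CPM in TAC_vehicle replicates 1 to 5, against 25.7, 77.7 and 108 CPM in sham_vehicle. The lowest TAC_vehicle library was above the highest sham_vehicle library, and the log2 fold change was 3.96 ± 0.78 (SE, adjusted p = 0.00245). Nppb, the B-type peptide measured in the blood of patients with heart failure, stood at 330, 425, 469, 255 and 533 CPM in TAC_vehicle, against 58.7, 54.3 and 37.5 CPM in sham_vehicle. Its groups did not overlap either, with a log2 fold change of 3.12 ± 0.31 (adjusted p = 1.51e-05). Acta1, the skeletal alpha actin, reached 2711, 2595, 4494, 3947 and 2736 CPM in TAC_vehicle, against 143, 92.6 and 157 CPM in sham_vehicle. The log2 fold change of Acta1 was 4.55 ± 0.51 (adjusted p = 4.77e-05). Per length, Acta1 averaged 1731 ± 547 TPM in TAC_vehicle and 52.9 ± 14.4 TPM in sham_vehicle, while Actc1, the cardiac actin, averaged 3374 ± 812 TPM and 2414 ± 160 TPM (SD, n = 5 and 3), so Acta1 stayed below Actc1 in both groups.

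Of the myosin heavy chains, Myh7 rose, while a small fall of Myh6 depended on single libraries and on the run term. Myh7, the slow beta chain, had 678, 3045, 1669, 2924 and 6007 CPM in TAC_vehicle, against 157, 236 and 260 CPM in sham_vehicle, a log2 fold change of 3.11 ± 0.61 (adjusted p = 0.00237). Myh6, the fast alpha chain of the adult mouse, had 21388, 17901, 18531, 24669 and 23620 CPM in TAC_vehicle, against 24480, 25767 and 23452 CPM in sham_vehicle, and the groups overlapped. Its log2 fold change was -0.34 ± 0.12 (adjusted p = 0.0425), a call lost without TAC_vehicle replicate 2 or 3 or without any of the 3 sham_vehicle libraries (adjusted p 0.0659 to 0.128). The call was also lost without the run term and with a term for replicate number in its place. As a share of the TPM of both chains, Myh7 made up 4.18%, 21.6%, 13%, 15% and 26.8% in TAC_vehicle, against 0.807%, 1.4% and 1.68% in sham_vehicle. The mean share was 16.1% ± 8.62 in TAC_vehicle and 1.3% ± 0.445 in sham_vehicle (SD, n = 5 and 3, exact permutation test, two-sided p = 0.0357, the smallest that 5 against 3 allows). In the first run alone it was 12.9% and 1.3%, where 3 against 3 cannot go below 0.1 in that exact test.

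**Figure D2:**
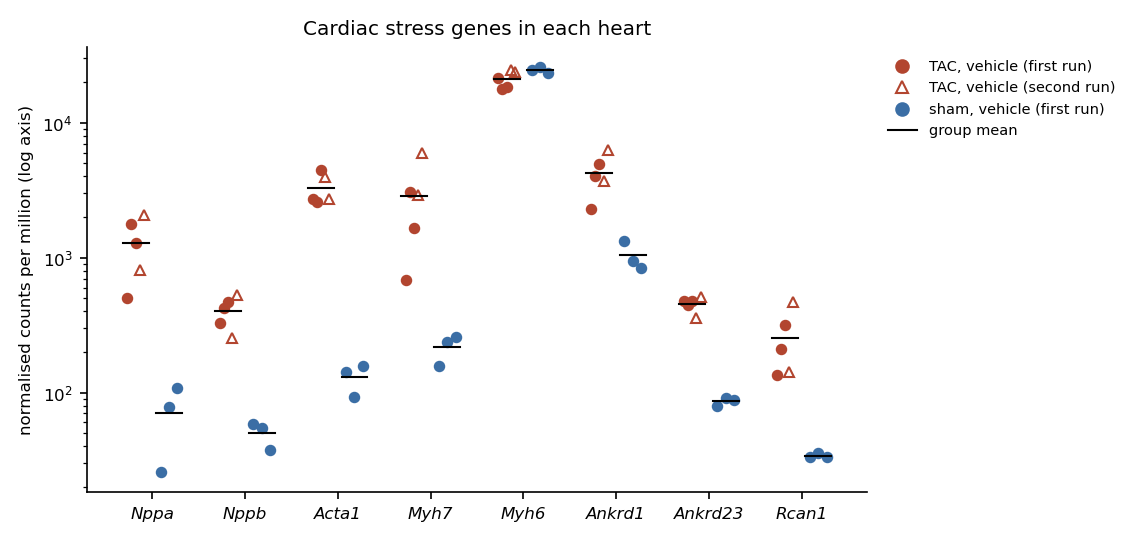
Normalised counts in CPM (log y axis) of 8 stress genes in each heart, with TAC left of sham, the second-run hearts as open triangles and the group mean as a line. All TAC points of Nppa, Nppb, Acta1, Myh7, Ankrd1, Ankrd23 and Rcan1 lie above all sham points, and those of Myh6 overlap.

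Genes of the stretch-responsive Z-disc and intercalated disc rose as well. Ankrd1, a titin-binding repressor that shuttles to the nucleus, had 2296, 4043, 4905, 3704 and 6267 CPM in TAC_vehicle, against 1335, 949 and 841 CPM in sham_vehicle (log2 1.86 ± 0.29, adjusted p = 0.000498). Its relative Ankrd23 had 474, 443, 481, 358 and 513 CPM in TAC_vehicle, against 79.9, 91.4 and 87.8 CPM in sham_vehicle (log2 2.51 ± 0.21, adjusted p = 1.81e-06). Neither gene overlapped between the groups. Xirp2, an actin-binding protein of the intercalated disc, rose by 2.35 ± 0.32 on the log2 scale, the actin crosslinker Flnc by 1.56 ± 0.16, the intermediate filament desmin (Des) by 0.72 ± 0.16 and Mybpc2, the fast skeletal myosin-binding protein, by 1.55 ± 0.18. Rcan1, an inhibitor and transcriptional target of calcineurin, had 134, 212, 316, 143 and 466 CPM in TAC_vehicle, against 33.3, 35.5 and 33.3 CPM in sham_vehicle (log2 2.78 ± 0.53, adjusted p = 0.00202). Its TAC_vehicle libraries spread over a wide range, and the lowest still lay above all 3 sham_vehicle libraries.

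The adult sarcomere did not move as a block: of 25 tested sarcomere and Z-disc genes, 7 rose and 8 fell, with a median log2 change of 0.11. The thick-filament protein Mybpc3 rose by 0.42 ± 0.09, the thin-filament length regulator Lmod2 by 0.53 ± 0.09 and the caveolar protein Cavin4 by 0.72 ± 0.09 (log2). Some small thin-filament and thick-filament subunits went the other way: Tnni3 (cardiac troponin I) had a log2 fold change of -0.77 ± 0.10, Tnnt2 (cardiac troponin T) -0.48 ± 0.08 and Myl2 (ventricular regulatory light chain) -0.57 ± 0.11. The titin cap Tcap, which is part of neither filament, fell too (-1.06 ± 0.17). Tcap stood at 596, 701, 459, 1044 and 742 CPM in TAC_vehicle, against 1164, 1204 and 1206 CPM in sham_vehicle. Without the run term these 4 falls missed the threshold (adjusted p 0.052 to 0.631), and in the first run alone they passed it.

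Repolarizing potassium channels fell. Of 19 tested potassium channel genes, 11 fell and 0 rose, with a median log2 change of -0.67, and the same numbers held in the first run alone. Kcnip2, the subunit that carries the transient outward current of the mouse ventricle to the membrane, had 88.2, 76.3, 53.2, 80.7 and 64.8 CPM in TAC_vehicle, against 134, 135 and 144 CPM in sham_vehicle (log2 -0.90 ± 0.17, adjusted p = 0.00124). Kcnd3, a pore subunit of that current, fell with it (log2 -0.67 ± 0.12). Kcnh2, the pore of the rapid delayed rectifier, had 32.5, 28.9, 23.6, 33.4 and 24.9 CPM in TAC_vehicle, against 60.6, 63.6 and 59.2 CPM in sham_vehicle (log2 -1.14 ± 0.12, adjusted p = 4.36e-06). Kcnj3 and Kcnj5, which together form the acetylcholine-gated channel, changed by -1.27 ± 0.26 and -1.13 ± 0.15 and the calcium-activated channel Kcnn2 by -1.02 ± 0.14 (log2). For Kcnip2, Kcnd3, Kcnh2, Kcnj3, Kcnj5 and Kcnn2, no TAC_vehicle library reached the lowest sham_vehicle library.

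Most calcium-handling genes did not pass the test: of 25 tested, 2 rose and 6 fell, where 13.5% and 12.8% of all genes did. Atp2a2, the sarcoplasmic reticulum calcium pump, had 8278, 7193, 7237, 5860 and 5316 CPM in TAC_vehicle, against 9505, 10320 and 9402 CPM in sham_vehicle. Its groups did not overlap, but its log2 fold change with the run term was only -0.35 ± 0.13 (adjusted p = 0.0447), and the call was lost without TAC_vehicle replicate 2, 3 or 5 or any of the sham_vehicle libraries (adjusted p 0.0559 to 0.142). Pln, the inhibitor of that pump, fell to 3988, 3591, 3670, 3301 and 2560 CPM in TAC_vehicle, against 5461, 5687 and 5244 CPM in sham_vehicle (log2 -0.57 ± 0.13, adjusted p = 0.00247). Casq2, the calcium store of the reticulum, rose by 0.54 ± 0.09 and the calcium channel subunit Cacnb2 changed by -0.44 ± 0.08, while the release channel Ryr2 was at -0.14 ± 0.11 (log2, adjusted p = 0.379). Among 17 tested sodium and pacemaker channels and connexins, 3 fell, and 2 in the first run alone, which is near the 12.8% of all genes that fell. The 3 were Scn10a (log2 -3.25 ± 0.51, at 0 to 0.457 CPM in TAC_vehicle and 1.13 to 2.11 CPM in sham_vehicle), Hcn4 (-0.81 ± 0.19) and Cacna1g (-0.39 ± 0.13).

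Receptor genes are set beside the share of all genes, of which 13.5% rose and 12.8% fell. Of 23 adrenergic and G protein genes, 6 fell and 1 rose: the receptor kinase Grk5 rose by 0.85 ± 0.17 (log2), and the alpha-1B receptor Adra1b (-0.97 ± 0.24), the muscarinic receptor Chrm2 (-0.77 ± 0.11) and the G protein regulator Rgs2 (-1.14 ± 0.21) were among those that fell. In the renin-angiotensin, endothelin and natriuretic receptor list, 5 of 15 tested rose and 4 fell. Edn3, an endothelin ligand, had 11.9, 22.1, 16.9, 17.2 and 28.1 CPM in TAC_vehicle, against 0.783, 1.74 and 1.85 CPM in sham_vehicle, the largest log2 change of that list (3.63 ± 0.43, adjusted p = 4.92e-05). Ace, the angiotensin-converting enzyme, rose, at 75.9, 92.5, 103, 79 and 109 CPM in TAC_vehicle, against 41.6, 36.6 and 40.1 CPM in sham_vehicle (log2 1.20 ± 0.23). Agtr1a, the angiotensin receptor, fell (log2 -0.91 ± 0.13), as did Corin, the protease that activates atrial natriuretic peptide (log2 -0.62 ± 0.12), so the peptide gene and its processing enzyme moved in opposite directions.

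Extracellular matrix genes rose across nearly the whole collagen family. Of 21 tested collagens, 19 rose and 0 fell (13.5% of all genes rose), with a median log2 change of 1.46, and 20 rose in the first run alone. Col1a1, the main chain of fibrillar type I collagen, had 105, 112, 173, 111 and 153 CPM in TAC_vehicle, against 33.1, 28.8 and 30 CPM in sham_vehicle (log2 1.99 ± 0.35, adjusted p = 0.00116). Col3a1, the chain of type III collagen, had 262, 307, 558, 263 and 403 CPM in TAC_vehicle, against 79.5, 79.5 and 69.7 CPM in sham_vehicle (log2 2.15 ± 0.40, adjusted p = 0.0017). Every TAC_vehicle library held more of both chains than any sham_vehicle library. The basement membrane chain Col4a1 rose by 1.61 ± 0.21, the microfibrillar chain Col6a3 by 1.46 ± 0.17, Col15a1 by 1.59 ± 0.22 and the short-chain Col8a1 by 2.88 ± 0.45 (log2), so the rise took in network as well as fibrillar collagens. Of 20 tested genes that fold, hydroxylate and crosslink collagen, 14 rose and 0 fell, among them the collagen chaperone Serpinh1 (log2 1.03 ± 0.11, adjusted p = 1.81e-06), the prolyl hydroxylase P4ha1 (1.45 ± 0.20) and the lysyl oxidase Loxl2 (1.97 ± 0.33). Lox itself had 6.68, 14.4, 32.4, 6.07 and 29.7 CPM in TAC_vehicle, against 1.96, 1.57 and 2.3 CPM in sham_vehicle, with groups that did not overlap and a log2 fold change of 2.92 ± 1.04 that missed the threshold (adjusted p = 0.054).

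**Figure D3:**
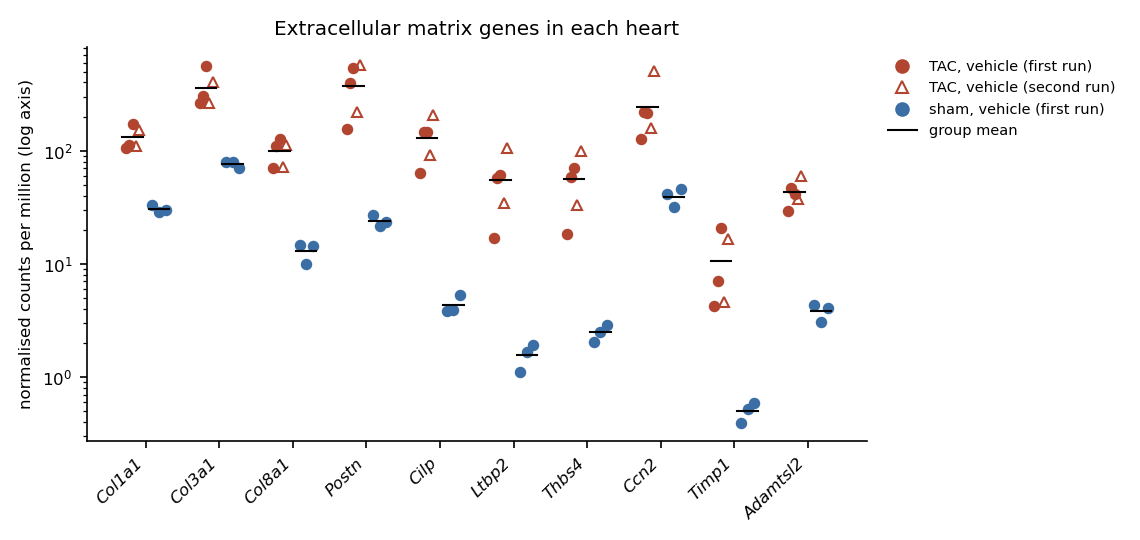
Normalised counts in CPM (log y axis) of 10 matrix genes in each heart, with TAC left of sham, the second-run hearts as open triangles and the group mean as a line. All TAC points lie above all sham points for every gene drawn, and TAC_vehicle replicate 1, the leftmost point of each gene, is the lowest TAC point for all 10.

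Matricellular proteins, which modulate cells rather than bear load, included several of the largest rises. Of 26 tested, 15 rose and 1 fell, with a median log2 change of 1.64. Postn, periostin, a marker of activated fibroblasts, had 155, 394, 538, 221 and 572 CPM in TAC_vehicle, against 27, 21.5 and 23.6 CPM in sham_vehicle (log2 3.79 ± 0.70, adjusted p = 0.00168). Cilp had 63.9, 145, 146, 92.2 and 206 CPM in TAC_vehicle, against 3.84, 3.91 and 5.33 CPM in sham_vehicle (log2 4.74 ± 0.65, adjusted p = 0.000223). Both genes were lowest in TAC_vehicle replicate 1 and highest in replicate 5, and of the 15 risen matricellular genes 12 were lowest in replicate 1 and 12 highest in replicate 5. Ccn2, connective tissue growth factor, had 126, 221, 214, 159 and 503 CPM in TAC_vehicle, against 41, 31.6 and 45.4 CPM in sham_vehicle (log2 2.36 ± 0.51), and the replicate at 503 CPM stood far above the others. Thrombospondins split: Thbs1 (log2 3.98 ± 0.56) and Thbs4 (4.22 ± 0.89) rose, and Thbs2 was at 10.3, 10.1, 11.9, 11.5 and 10.9 CPM in TAC_vehicle, against 24, 17.3 and 23.8 CPM in sham_vehicle (-0.88 ± 0.18). Tenascin C (Tnc, log2 3.92 ± 0.74) and the microfibril protein Mfap5 (2.41 ± 0.47) rose too.

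Elastic fibre and proteoglycan genes rose in 17 of 27 tested and fell in 2. Elastin (Eln) rose by 2.02 ± 0.42, fibrillin 1 (Fbn1) by 2.14 ± 0.38, biglycan (Bgn) by 1.78 ± 0.30 and versican (Vcan) by 2.37 ± 0.36 on the log2 scale. Ltbp2, a fibrillin-binding protein, had 17, 57.9, 60.8, 34.4 and 106 CPM in TAC_vehicle, against 1.1, 1.65 and 1.93 CPM in sham_vehicle (log2 4.74 ± 0.99, adjusted p = 0.00354). Of 22 metalloproteinases and their inhibitors, 14 rose and 0 fell. Timp1, an inhibitor of matrix metalloproteinases, had 4.22, 7.1, 20.7, 4.57 and 16.7 CPM in TAC_vehicle, against 0.392, 0.522 and 0.592 CPM in sham_vehicle (log2 4.13 ± 1.06, adjusted p = 0.012), and all 5 TAC_vehicle libraries lay above the sham_vehicle range. Mmp14, a membrane-bound protease, rose by 1.09 ± 0.19, and the secreted protein Adamtsl2, not itself a protease, by 3.29 ± 0.46 (log2).

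Of 27 tested genes of transforming growth factor beta and bone morphogenetic protein signalling, which include ligands, receptors and binding proteins, 14 rose, 2 fell and 11 did not pass the test. The ligands Tgfb1 (log2 0.74 ± 0.12), Tgfb2 (1.50 ± 0.43) and Tgfb3 (1.22 ± 0.21) all passed, although Tgfb2 did not without TAC_vehicle replicate 3 or any of the sham_vehicle libraries (adjusted p 0.052 to 0.0787). The coreceptor Tgfbr3 (-0.83 ± 0.13) and the latency protein Ltbp1 (-0.53 ± 0.09) were the 2 that fell. Gdf15, a circulating stress cytokine, had 2.77, 4.33, 5.94, 3.39 and 19.2 CPM in TAC_vehicle, against 0.548, 0.174 and 0.444 CPM in sham_vehicle (log2 3.50 ± 1.08, adjusted p = 0.029), a call lost without TAC_vehicle replicate 3 or any of the sham_vehicle libraries (adjusted p 0.0618 to 0.0971). Among 31 other growth factors, 8 rose and 8 fell: Fgf6 rose by 2.86 ± 0.32 and Hbegf, a ligand of the epidermal growth factor receptor, by 1.53 ± 0.27, while Fgf16, a cardiac fibroblast growth factor, changed by -1.40 ± 0.16 and Pdgfa by -0.82 ± 0.14 (log2). Fgf21 was not tested, with at most 3 counts in any of the 8 libraries.

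Of 26 tested genes of activated fibroblasts, which share members with the matrix lists, 16 rose and 1 fell. Meox1, a transcription factor of activated cardiac fibroblasts, had 29.9, 36.9, 46, 34.6 and 58.2 CPM in TAC_vehicle, against 3.99, 6.78 and 7.26 CPM in sham_vehicle (log2 2.59 ± 0.36, adjusted p = 0.000217). The smooth muscle actin of myofibroblasts did not follow: Acta2 had 65.4, 32.4, 49.2, 34.3 and 45.7 CPM in TAC_vehicle, against 47.2, 39.6 and 86.4 CPM in sham_vehicle, with overlapping groups (log2 -0.33 ± 0.32, adjusted p = 0.488). Targets of the mechanosensitive factors YAP, MRTF and serum response factor rose in 17 of 30 tested and fell in 1. The DNA-binding partners themselves were among them: Tead1 rose by 0.80 ± 0.11 and Srf by 0.77 ± 0.11 (log2). Of 20 immediate early genes, 6 rose and 0 fell, including Egr3 (2.92 ± 0.53), Atf3 (2.83 ± 0.70) and Myc (1.51 ± 0.31).

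Marker lists of the cell types of the ventricle were measured beside these counts, and their part in the matrix result was not tested. The marker counts are to be set against all genes, of which 13.5% rose and 12.8% fell. Of 14 fibroblast markers, 7 rose and 1 fell, with a median log2 change of 0.35, against 1.46 for the collagens; their summed level was 378 to 815 TPM in TAC_vehicle and 269 to 308 TPM in sham_vehicle, and none was at 0 in every library. Col1a1 and Mfap5 are in this list and in the matrix lists. The fibroblast receptor Pdgfra rose by 0.44 ± 0.10 (log2) and Medag by 1.21 ± 0.16. Of 17 macrophage markers, 3 rose and 0 fell (Lyz2, Fcgr1 and Spp1), with summed levels of 67.7 to 140 TPM in TAC_vehicle and 43.4 to 57 TPM in sham_vehicle. Without sham_vehicle replicate 2, 0 macrophage markers rose and 1 fell, and Lyz2 had an adjusted p of 0.168. Endothelial markers rose in 3 and fell in 1 of 14, smooth muscle and pericyte markers rose in 2 and fell in 2 of 13, and 0 of 8 tested lymphocyte and granulocyte markers passed. Of the endothelial markers, 1 rose in the first run alone and 0 without TAC_vehicle replicate 3 or sham_vehicle replicate 1 or 3. Ventricular cardiomyocyte markers, which share members with the sarcomere and calcium lists, rose in 2 and fell in 5 of 12 (median log2 change -0.24), with 1 fall without the run term, and nerve and Schwann cell markers rose in 1 and fell in 3 of 8 (median -1.14). The part of the cardiomyocyte markers in the falls of channel, sarcomere and metabolic genes was not tested. Summed TPM is not adjusted for the run.

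**Figure D4:**
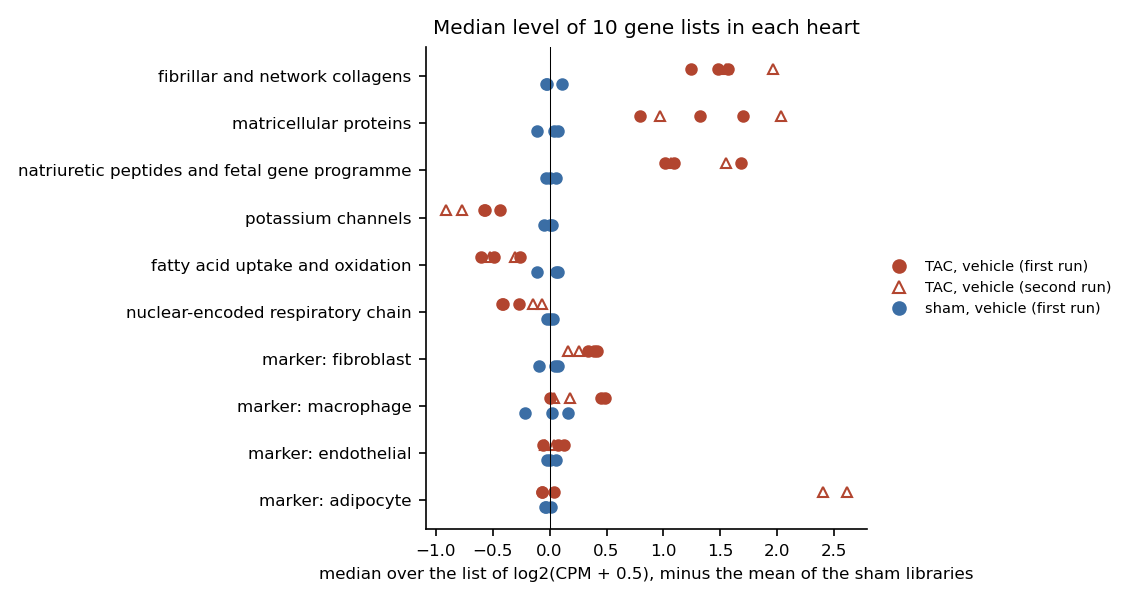
Median over a gene list of log2(CPM + 0.5) in each heart, minus the mean of the sham libraries (x axis), for 10 lists, with TAC points above sham points in each row and second-run hearts as open triangles. The TAC hearts lie at 1.24 to 1.96 for the collagens and at 0.16 to 0.42 for the fibroblast markers, and the adipocyte markers are raised in the 2 second-run hearts alone.

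Genes of oxidative metabolism fell, by small amounts each. Of 34 tested genes of fatty acid uptake and oxidation, 22 fell and 0 rose, with a median log2 change of -0.43 (12.8% of all genes fell), and 22 fell in the first run alone. The count was 13 without sham_vehicle replicate 3. Slc27a1, a fatty acid transporter, had 76.2, 58.2, 58, 76 and 66.6 CPM in TAC_vehicle, against 105, 142 and 155 CPM in sham_vehicle (log2 -1.07 ± 0.17, adjusted p = 0.00034). Acadm, the medium-chain dehydrogenase of beta oxidation, had 720, 646, 603, 803 and 709 CPM in TAC_vehicle, against 994, 989 and 1027 CPM in sham_vehicle (log2 -0.58 ± 0.11, adjusted p = 0.000425). The trifunctional protein subunit Hadhb (log2 -0.56 ± 0.09), Decr1 (-0.68 ± 0.11), needed for unsaturated fatty acids, and Etfb (-0.82 ± 0.11), which passes the electrons on, fell with it. At the carnitine step the genes differed in their calls: Cpt1a (-0.46 ± 0.15, adjusted p = 0.0273) and Cpt2 (-0.39 ± 0.12, adjusted p = 0.0241), named after their values were seen, fell, and Cpt1b did not pass. Whether these changes differ was not tested. Cpt1a had 42, 38.5, 36.1, 33.2 and 27.4 CPM in TAC_vehicle, against 35.9, 58.6 and 58.9 CPM in sham_vehicle, so its groups overlapped. Cpt1b, the muscle carnitine palmitoyltransferase, had 495, 415, 443, 522 and 489 CPM in TAC_vehicle, against 465, 553 and 554 CPM in sham_vehicle (-0.18 ± 0.10, adjusted p = 0.202), and Pdk4, which holds back glucose oxidation, spread over 176 to 586 CPM in TAC_vehicle and 169 to 466 CPM in sham_vehicle.

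Of 28 tested genes of the tricarboxylic acid cycle and pyruvate dehydrogenase, 21 fell and 2 rose, with a median log2 change of -0.32. The falls numbered 17 in the first run alone, 12 without the run term and 15 without sham_vehicle replicate 1. Sdhc, an anchor subunit of succinate dehydrogenase, had 218, 189, 176, 198 and 181 CPM in TAC_vehicle, against 279, 270 and 296 CPM in sham_vehicle (log2 -0.52 ± 0.09, adjusted p = 0.000185), and Suclg1 of succinyl-CoA ligase changed by -0.50 ± 0.09. Of 75 nuclear-encoded subunits of the respiratory chain, 66 fell and 0 rose, with a median log2 change of -0.38, and 57 fell in the first run alone. This count rested on the run term: without it, 23 of the 75 fell. Atp5o, of the ATP synthase, had 514, 436 and 444 CPM in the first-run TAC_vehicle libraries and 672 and 631 CPM in the second-run ones, against 700, 653 and 676 CPM in sham_vehicle (log2 -0.53 ± 0.08, adjusted p = 8.63e-05). Cox6c of complex IV (-0.60 ± 0.10) and Ndufa5 of complex I (-0.57 ± 0.09) showed log2 changes of like size.

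Transcripts of the mitochondrial genome followed less clearly: 4 of 13 fell and 0 rose, and 0 fell without TAC_vehicle replicate 2 or without sham_vehicle replicate 1 or 3. mt-Nd1 of complex I had a log2 fold change of -0.33 ± 0.11 (adjusted p = 0.0322) and mt-Co1 of complex IV one of -0.23 ± 0.09 (adjusted p = 0.0836). Mitochondrially encoded transcripts together made up 33.6%, 32.8%, 34.8%, 25.6% and 23.7% of estimated counts in TAC_vehicle, against 36%, 35.4% and 35.6% in sham_vehicle (exact permutation test, two-sided p = 0.0357). The exact test carries no run term, and the 2 lowest shares were those of the second run. In sham_332, which had no TAC, second-run replicates 4 and 5 stood at 28.8% and 28.1%, against 35.6% to 36.5% in replicates 1 to 3. The part of the run in the vehicle difference was not tested. In the first run alone the means were 33.7% ± 0.992 in TAC_vehicle and 35.7% ± 0.346 in sham_vehicle (SD, n = 3 each, exact two-sided p = 0.1, the smallest possible). As a share of TPM the means were 57% and 61.3% (exact two-sided p = 0.464).

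Genes of the nuclear receptors and coactivators mostly did not pass the test, and their part in the falls above was not tested. Of 19 tested genes of the ERR family and its coactivators, 3 fell and 0 rose, with a median log2 change of -0.06. In the first run alone 1 fell, and 12.8% of all genes fell in the main fit. Esrra had 72.3, 60, 65.1, 74.5 and 75.8 CPM in TAC_vehicle, against 75.6, 70.5 and 74 CPM in sham_vehicle (log2 -0.13 ± 0.07, adjusted p = 0.158). Esrrb was at 0.01 ± 0.10 (adjusted p = 0.952) and Esrrg at 0.17 ± 0.14 (adjusted p = 0.395), on the same scale. Ppargc1a, which encodes PGC-1 alpha, had 150, 79.1, 73.9, 67.3 and 62.5 CPM in TAC_vehicle, against 115, 89.8 and 101 CPM in sham_vehicle, where replicate 1 alone lay above the sham_vehicle range and the other 4 below it (log2 -0.04 ± 0.23, adjusted p = 0.911). Ppargc1b (-0.06 ± 0.16, adjusted p = 0.816) and the striated muscle coactivator Perm1 (0.14 ± 0.10, adjusted p = 0.337) did not pass the test either. The 3 that fell were Gabpa (-0.25 ± 0.08), a regulator of respiratory genes, and the myocyte factors Mef2a (-0.34 ± 0.10) and Mef2c (-0.25 ± 0.08), of which 1 was called without sham_vehicle replicate 1 and 2 without TAC_vehicle replicate 3 or sham_vehicle replicate 3.

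Genes of other fuels were tested as 2 lists. Of 21 genes of ketone and branched-chain amino acid oxidation, 15 fell and 1 rose. The riser was Bdh1, the first enzyme of ketone body use, with 156, 204, 169, 196 and 230 CPM in TAC_vehicle, against 65.6, 57.9 and 49.5 CPM in sham_vehicle (log2 1.68 ± 0.22, adjusted p = 0.000107). Among those that fell were Bckdhb of the branched-chain keto acid dehydrogenase (-0.80 ± 0.13), its phosphatase Ppm1k (-0.91 ± 0.19) and the leucine enzyme Mccc1 (-0.57 ± 0.09). Of 35 genes of glucose use, 4 rose and 7 fell, where 13.5% and 12.8% of all genes did. The platelet-type phosphofructokinase Pfkp rose by 1.38 ± 0.30, and Pfkfb1 (-2.50 ± 0.32), the lactate dehydrogenase subunit Ldhb (-0.59 ± 0.09) and the insulin-dependent transporter Slc2a4 (-0.44 ± 0.11) fell (log2). Slc2a1, the constitutive glucose transporter, had 11.4, 14.5, 17.8, 13.1 and 22.5 CPM in TAC_vehicle, against 11.7, 11.8 and 11.3 CPM in sham_vehicle (0.35 ± 0.21, adjusted p = 0.227), and hexokinase 2 (Hk2) was at -0.06 ± 0.10 (adjusted p = 0.709). Mthfd2 of mitochondrial one-carbon metabolism rose (1.89 ± 0.33) and Aldh1l2 of the same pathway fell (-1.57 ± 0.22).

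Chaperones of the endoplasmic reticulum rose in 9 of 20 tested and fell in 2. Atf6, a sensor of misfolded protein, rose by 0.59 ± 0.08 (adjusted p = 4e-05), Hyou1 by 0.50 ± 0.10 and Manf by 0.51 ± 0.10, and Herpud1 fell, at 116, 90.9, 79.8, 101 and 67.1 CPM in TAC_vehicle, against 165, 164 and 216 CPM in sham_vehicle (log2 -0.93 ± 0.16). Without sham_vehicle replicate 3, 6 of the 20 rose. Of 28 cell cycle genes, 12 rose and 3 fell, and 6 rose without sham_vehicle replicate 3. Top2a, a topoisomerase of dividing cells, had 4.04, 4.71, 4.76, 3.52 and 4.23 CPM in TAC_vehicle, against 1.41, 1.48 and 1.18 CPM in sham_vehicle (log2 1.64 ± 0.32), and the inhibitor Cdkn1a rose with it (1.93 ± 0.34). Cenpf, a kinetochore protein of dividing cells, did the opposite, with 3.22, 4.33, 2.42, 4.76 and 3.15 CPM in TAC_vehicle, against 22.6, 28.1 and 32.9 CPM in sham_vehicle, the largest fall among genes averaging at least 5 CPM (log2 -2.95 ± 0.34, adjusted p = 5.54e-05).

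Of 26 chemokines and cytokines, 5 rose and 4 fell, of 17 complement genes 4 rose and 0 fell, and of 30 interferon-stimulated genes 0 rose and 4 fell. With 13.5% of all genes rising and 12.8% falling, the falls of the interferon-stimulated genes and of the chemokines and cytokines were near the background. Ccl9 rose by 1.37 ± 0.28 (log2), and the eotaxin Ccl11 fell, at 0.0631 to 1.07 CPM in TAC_vehicle and 2.87 to 3.6 CPM in sham_vehicle (-2.92 ± 0.51). C4b, complement component 4, had 18.7, 20.4, 34.7, 18.4 and 29.5 CPM in TAC_vehicle, against 9.16, 10.5 and 9.77 CPM in sham_vehicle (log2 1.32 ± 0.34, adjusted p = 0.012). These counts were small and moved with single libraries: 1 complement gene rose without TAC_vehicle replicate 3, 1 chemokine or cytokine rose without sham_vehicle replicate 1, and 1 interferon-stimulated gene fell without TAC_vehicle replicate 1 or 2 or sham_vehicle replicate 1 or 3.

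Among single genes averaging at least 5 CPM, the 12 largest rises were Hspa1a, Cilp, Ltbp2, Acta1, Dio2, Thbs4, Timp1, Hspa1b, Thbs1, Nppa, Arntl and Postn. Hspa1a, the inducible heat shock protein 70, had 21.8, 7.88, 62.2, 13.4 and 20.6 CPM in TAC_vehicle, against 1.49, 1.22 and 1.48 CPM in sham_vehicle (log2 4.79 ± 1.58, adjusted p = 0.0396). Its call was lost without TAC_vehicle replicate 3 or 5 or any of the sham_vehicle libraries (adjusted p 0.0561 to 0.116), and it shares reads with its near-identical neighbour Hspa1b. Dio2, which converts thyroxine to active thyroid hormone, had 6.56, 19.6, 14.3, 7.77 and 36.4 CPM in TAC_vehicle, against 0.392, 0.348 and 0.889 CPM in sham_vehicle (log2 4.51 ± 0.95, adjusted p = 0.00375). The 12 largest falls were Cenpf, Inmt, Clcn1, Lgals4, Pfkfb1, Ppl, Ces1d, Kcnv2, Hlf, Ccbe1, Gm10435 and Klhl33. Clcn1, the muscle chloride channel, had 2.84, 1.49, 1.1, 3.33 and 0.82 CPM in TAC_vehicle, against 14.3, 12.7 and 11 CPM in sham_vehicle (log2 -2.64 ± 0.43), and Lgals4, a galectin, had 26.8, 13.6, 10.2, 35.8 and 15.7 CPM in TAC_vehicle, against 74.2, 94.5 and 135 CPM in sham_vehicle (-2.54 ± 0.39). For all 24 genes the groups did not overlap, as the rule that chose them requires.

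The circadian clock differed between the groups in both of its arms. Of 19 tested clock genes, 6 rose and 8 fell. Arntl, which encodes the activator BMAL1, had 8.7, 5.23, 17.1, 7.05 and 14.3 CPM in TAC_vehicle, against 0.627, 1.39 and 0.37 CPM in sham_vehicle (log2 3.90 ± 0.79, adjusted p = 0.00271). Its partner Clock had 37.8, 33.7, 46.5, 25.5 and 32.7 CPM in TAC_vehicle, against 21.8, 24.4 and 18.7 CPM in sham_vehicle (0.87 ± 0.13, adjusted p = 8.56e-05). Both activators were higher in every TAC_vehicle library than in any sham_vehicle library. The repressor Per3 had 24.2, 29.5, 11.1, 29 and 10.7 CPM in TAC_vehicle, against 59.3, 53.3 and 55.8 CPM in sham_vehicle (-1.45 ± 0.33, adjusted p = 0.0059). The output factors Dbp (-1.12 ± 0.27), Tef (-1.01 ± 0.20) and Hlf (-1.94 ± 0.36) and the repressors Cry1 (-0.84 ± 0.17), Cry2 (-0.81 ± 0.20) and Nr1d2 (-0.70 ± 0.17) fell too. Per2 (-1.29 ± 0.34, adjusted p = 0.0132) fell as well, a call that was lost without sham_vehicle replicate 3 (adjusted p = 0.0513), while the other repressor Nr1d1 rose (0.63 ± 0.19, adjusted p = 0.0218), a call lost without any of the sham_vehicle libraries (adjusted p 0.0533 to 0.0737). Clock transcripts cycle over the day, the labels give no time of collection, and the part of collection time in these differences was not tested. Under 332 the same contrast gave Arntl a log2 change of -0.65 ± 0.60, Per3 one of -0.09 ± 0.28 and Hlf one of -0.65 ± 0.30, and the difference between the vehicle and 332 contrasts passed for Clock (0.92 ± 0.17, adjusted p = 0.0438) and not for Arntl (4.56 ± 1.00, adjusted p = 0.118).

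**Figure D5:**
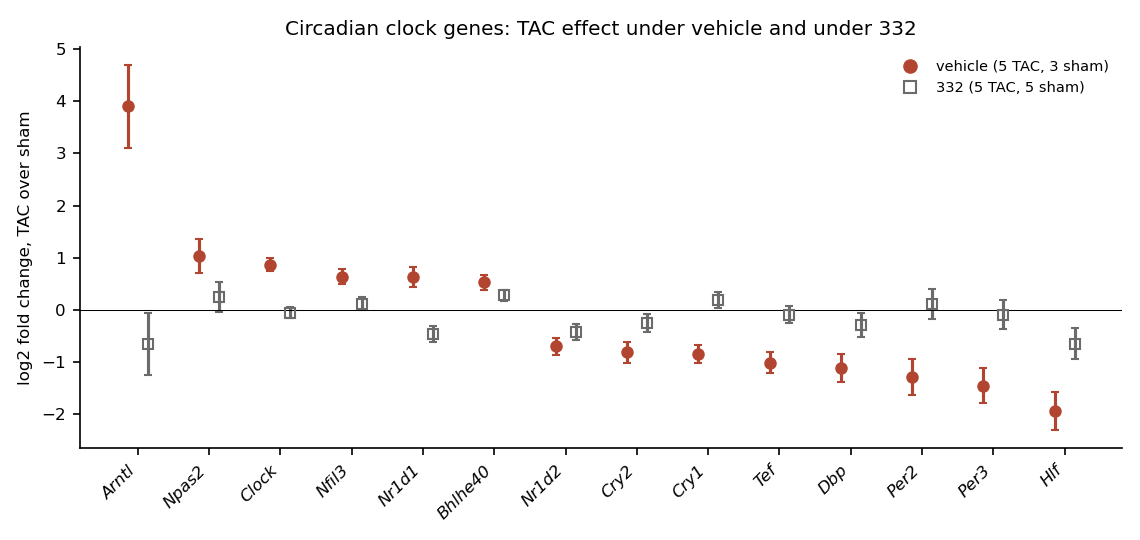
Log2 fold change of TAC over sham (y axis, bars are 1 SE) for 14 clock genes, under vehicle (filled circles, 5 TAC and 3 sham) and under 332 (open squares, 5 TAC and 5 sham). Under vehicle Arntl lies at 3.90 and Hlf at -1.94, and under 332 the 2 genes lie at -0.65 each. The 14 genes are a choice from the 19 tested clock genes, of which 6 rose and 8 fell under vehicle, and they hold all 8 that fell. This choice favours changes under vehicle. The difference between vehicle and 332 passed for 1 of the 19, Clock.

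At the level of transcripts, 1686 of 34583 tested (4.88%) were called, 900 higher and 786 lower in TAC_vehicle. The count was 1085 without TAC_vehicle replicate 3 and 989, 866 and 699 without sham_vehicle replicate 1, 2 and 3. The examples here were chosen after their values were seen. For Postn, Postn-201 (3189 bases) had 25.5, 126, 119, 68.7 and 229 CPM in TAC_vehicle, against 0.468, 1.9 and 2.07 CPM in sham_vehicle (log2 5.83 ± 1.10, adjusted p = 0.00684), and Postn-204 (3121 bases) had 76.8, 102, 261, 50.9 and 49.1 CPM in TAC_vehicle, against 18.6, 16.6 and 13.9 CPM in sham_vehicle (3.06 ± 0.96, adjusted p = 0.0902). Both isoforms were higher in every TAC_vehicle library, and whether their changes differ was not tested. The Myl2 isoforms went opposite ways: Myl2-209 had 2903, 2480, 2379, 3992 and 3500 CPM in TAC_vehicle, against 4219, 4146 and 3950 CPM in sham_vehicle (-0.65 ± 0.11), and the minor Myl2-203 had 92.1, 169, 134, 139 and 136 CPM in TAC_vehicle, against 44.4, 37.8 and 27.9 CPM in sham_vehicle (1.87 ± 0.23). The same held for Cox7b of complex IV, whose coding Cox7b-201 fell (-0.96 ± 0.10) while the retained-intron transcript Cox7b-203 rose (2.01 ± 0.34, adjusted p = 0.00321). Isoform counts are estimates that divide shared reads, the kit does not keep the strand, and 30 of the 1686 calls were at 0 in every library of 1 group.

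Few genes passed the test of a different TAC effect under vehicle and under 332. The test of the difference called 9 of 14047 genes (0.0641%), while 1406 had an unadjusted p under 0.05 and DESeq2 called 87. Among the 9, the log2 change under vehicle minus that under 332 was positive for 6 and negative for 3. The count was 0 without TAC_vehicle replicate 1 or 3, 0 without sham_vehicle replicate 2 or 3, 1 without sham_vehicle replicate 1, 3 without TAC_vehicle replicate 5 and 20 without TAC_vehicle replicate 2. Slc46a3, a lysosomal transporter, had 5.55, 6.33, 4.91, 5.55 and 3.03 CPM in TAC_vehicle, against 12.5, 11 and 11.2 CPM in sham_vehicle, a log2 change of -1.10 ± 0.18 under vehicle and 0.26 ± 0.15 under 332 (difference -1.36 ± 0.23, adjusted p = 0.0438). Gramd1b, a cholesterol transfer protein, changed by -0.84 ± 0.09 under vehicle and -0.20 ± 0.08 under 332, and the tetraspanin Tspan4 by -0.50 ± 0.12 and 0.43 ± 0.10. In the other direction Hyou1 changed by 0.50 ± 0.10 under vehicle and -0.19 ± 0.08 under 332, Shb by 0.96 ± 0.13 and 0.05 ± 0.11, Klhl30 by 0.27 ± 0.08 and -0.27 ± 0.06, and Stk24 by 0.34 ± 0.10 and -0.31 ± 0.08. None of the collagen, fatty acid, respiratory chain or natriuretic list members passed this test, and their median log2 changes were 1.46, -0.43, -0.38 and 1.40 under vehicle and 1.09, -0.48, -0.27 and 1.16 under 332. At the number of libraries here, a miss does not show that the changes are equal: on simulated counts this test recovered 61% of differences of 1 on the log2 scale and 21% of those of 0.5.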

How the data were processed

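RNA from the left ventricle was made into libraries with a kit that does not keep the strand, so overlapping and antisense genes cannot be told apart. Per the submitters' processing notes the authors used fastp, Salmon and DESeq2; versions, genome build and annotation are not given in the sources used here. The deposited files hold an estimated count and a TPM value for each of 140790 transcripts, per the file headers, and the rat data of the series were not used here. Estimated counts were summed to 54307 genes and rounded (7.43% were not whole before). Genes passing filterByExpr (minimum count 10) were tested with edgeR 4.0.16 (R 4.3.3, limma 3.58.1) by the quasi-likelihood test on all 18 mouse libraries, with group and run terms, TMM scaling and Benjamini-Hochberg adjustment at 0.05. DESeq2 1.42.0 was an alternative. CPM was computed from the deposited estimated counts. The gene lists, the members and the tests were chosen with earlier results of these data known. Named genes came mainly from the following sets, not all of whose members are given. In each direction, 1 set was the 12 called genes that changed most among those averaging 5 CPM or more whose groups were apart. Another was up to 5 called members per list with the smallest adjusted p, so the examples of a list are among its strongest calls. The rest were members of lists of up to 13 genes, and a fixed set of 29. On simulated counts over 13787 genes, the test of TAC_vehicle against sham_vehicle recovered 80% of changes of 1 and 44% of changes of 0.5 on the log2 scale, with 6 false among 130 calls. A planned test of transcript usage is not reported, because 40 of its 44 calls on simulated data were false. The result of 1 gene is not reported here.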

Additional observations from a re-analysis of the deposited data

Results flagged for a closer look

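In 8 of 183 values examined over the 5 TAC_vehicle libraries, 1 library stood apart from the other 4 by Dixon's criterion (critical value 0.71), where chance gives about 1 in 20. Replicate 5 held 503 CPM of Ccn2, 19.2 CPM of Gdf15, 6.12 CPM of Myc and 385 CPM of Hk2. Replicate 3 held 13.6 CPM of Tnc, 62.2 CPM of Hspa1a and 92 CPM of Hspa1b. Replicate 1 held 150 CPM of Ppargc1a.

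The effect of TAC differed between vehicle and 332 by the test of the difference for the following genes. The log2 change under vehicle minus that under 332 was -1.36 for Slc46a3, -0.94 for Tspan4 and -0.64 for Gramd1b. It was 0.54 for Klhl30, 0.92 for Clock, 0.91 for Shb, 0.68 for Hyou1 and 0.65 for Stk24.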

How the results depend on the processing

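Of 166 called genes named, 131 kept the call under every setting where they were tested and 146 in all 8 fits that left out 1 library. The count of 3703 genes ranged over 2437 to 3747 in those fits, and that of 1686 transcripts over 699 to 1723. Many of the 166 were chosen for a large change or a small adjusted p, so their stability does not describe all 3703 calls. The count of 9 differences between vehicle and 332 was 521 with no low-count filter, 15 at a minimum count of 50, 87 with DESeq2, 0 with no run term and 5 in the first run, and 0 to 20 when 1 library was left out. The causes were not tested. The difference in the Myh7 share was 11.7 points in the first run and 12.2 to 17.8 points without 1 library. That in the mitochondrially encoded share was -1.92 points in the first run and -6.73 to -3.95 points without 1 library. Designs of those sizes cannot reach 0.05 in the exact test. In TPM the mitochondrially encoded difference was -4.38 points (exact p = 0.464). Among genes not called, direction turned for Esrrb (-0.05 in the first run, -0.06 with only the 2 groups and a run term, and -0.03 to -0.02 in the leave-one-out fits that turned), Hk2 (0.04 without the run term, -0.14 to 0.02 without 1 library), Acta2 (-0.55 to 0.07), Ppargc1a (-0.32 to 0.06) and Ppargc1b (-0.19 to 0.07), the last 3 only when 1 library was left out. Replicate numbers did not pair the libraries (correlations of -0.0143, 0.00539 and -0.0535), and with the replicate block in place of the run term 3356 genes were called. The transcript usage test was run, but neither it nor its alternatives are reported, since its calls on simulated data were mostly false.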
